A study of Mus musculus with 4 samples.

Results

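Open chromatin was examined around 9 genes of the germ line, the lineage that gives rise to sperm and eggs: Dazl, Ddx4, Sycp3, Mael, Stra8, Prdm1, Nanos3, Tdrd1 and Slc25a31. The regions were taken by position. A region belonged to a gene when it overlapped the mm10 gene span or the 20 kb on either side, which gave 61 of the 170898 regions found in the series. Accessibility was mapped by ATAC-seq, in which a transposase inserts sequencing adapters where DNA is exposed. All libraries came from 2TS22C mouse embryonic stem cells whose own SOX2 was silenced, with DOX treatment, grown in 2i serum/Lif medium. One group of 2 libraries carried a lentivirus for SOX2, and the other group of 2 carried a lentivirus for SOX17FNV, an engineered SOX17. The titles call the libraries of a group biological replicates but do not say whether the lines were derived separately, so the spread given here is the spread between these libraries. No sample of germ cells was part of the series, and a bulk peak cannot tell a site open in few cells from one weakly open in many.

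Germ line genes are silent in most somatic cells and largely held down in embryonic stem cells. Many of them have start sites rich in CG dinucleotides, which are shut by DNA methylation and by a variant Polycomb complex that holds PCGF6, MGA, MAX and E2F6. MAX with MGA binds the E-box CACGTG, and E2F6 binds sites with the core TCCCGC. PRDM1, also called BLIMP1, and NANOS3 act first, in the specification and survival of primordial germ cells. DAZL and DDX4 are RNA-binding proteins of germ cells, MAEL and TDRD1 act in the piRNA pathway that silences transposons, STRA8 starts meiosis in response to retinoic acid, SYCP3 is part of the axis of meiotic chromosomes, and SLC25A31 is an ADP/ATP carrier of germ cell mitochondria.

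The lists held 92851 to 123214 peaks per library. Levels are given as the pileup, the number of fragments stacked at a peak's highest summit, and as a multiple of the library's median pileup over the 57783 regions called in all 4 libraries, which was 33 and 24 for SOX17FNV and 35 and 28 for SOX2. The lowest pileup in a list was 10 to 13. Enrichment is measured against the local background, so a site without a peak can hold a higher pileup than this. Such a site was below detection at this depth and not shown to be closed. With 2 libraries against 2, the smallest exact two-sided permutation p is 0.333. Of the stem cell markers, all 6 with a listed start site, Pou5f1 and Nanog among them, had a peak within 1 kb of it in every library. So did 63.8% of all protein-coding genes with a listed start.

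The 250 bases before the start site are shown for the 5 genes that hold a CACGTG there, and for Nanos3 as the gene with the lowest CG ratio and no called peak at its start. They come from the RefSeq promoter table for GRCm38.p6, whose coordinates are those of mm10, which had an entry for all 9 genes. Capitals mark CACGTG and TCCCGC, the second also where it is read on the other strand as GCGGGA.
Ddx4, chr13:112652311-112652560, minus strand: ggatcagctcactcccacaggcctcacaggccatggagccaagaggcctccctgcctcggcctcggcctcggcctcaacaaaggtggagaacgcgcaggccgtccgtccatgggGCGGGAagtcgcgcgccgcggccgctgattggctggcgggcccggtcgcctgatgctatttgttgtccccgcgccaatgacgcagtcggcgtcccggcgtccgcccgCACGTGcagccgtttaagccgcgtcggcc
Mael, chr1:166238745-166238994, minus strand: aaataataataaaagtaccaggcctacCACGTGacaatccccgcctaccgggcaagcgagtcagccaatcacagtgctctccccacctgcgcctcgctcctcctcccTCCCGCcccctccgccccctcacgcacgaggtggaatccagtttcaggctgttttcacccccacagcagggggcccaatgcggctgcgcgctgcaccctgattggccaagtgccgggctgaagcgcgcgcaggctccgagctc
Tdrd1, chr19:56825959-56826208, plus strand: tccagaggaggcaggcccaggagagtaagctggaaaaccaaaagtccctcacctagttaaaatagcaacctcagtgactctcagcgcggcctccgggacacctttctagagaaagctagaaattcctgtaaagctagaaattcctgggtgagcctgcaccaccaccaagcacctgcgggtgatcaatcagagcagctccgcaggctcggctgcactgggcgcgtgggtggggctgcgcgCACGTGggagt
Sycp3, chr10:88459337-88459586, plus strand: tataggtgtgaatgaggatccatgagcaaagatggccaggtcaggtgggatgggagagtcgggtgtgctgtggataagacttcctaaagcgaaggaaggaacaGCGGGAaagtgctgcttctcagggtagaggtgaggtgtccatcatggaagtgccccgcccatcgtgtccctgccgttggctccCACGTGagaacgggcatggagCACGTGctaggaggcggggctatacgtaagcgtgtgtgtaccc
Slc25a31, chr3:40708621-40708870, plus strand: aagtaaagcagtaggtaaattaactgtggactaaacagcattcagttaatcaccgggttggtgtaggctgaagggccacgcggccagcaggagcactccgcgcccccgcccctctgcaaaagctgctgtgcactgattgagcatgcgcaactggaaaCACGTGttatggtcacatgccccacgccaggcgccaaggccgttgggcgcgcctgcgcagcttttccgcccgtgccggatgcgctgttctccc
Nanos3, chr8:84176553-84176802, minus strand: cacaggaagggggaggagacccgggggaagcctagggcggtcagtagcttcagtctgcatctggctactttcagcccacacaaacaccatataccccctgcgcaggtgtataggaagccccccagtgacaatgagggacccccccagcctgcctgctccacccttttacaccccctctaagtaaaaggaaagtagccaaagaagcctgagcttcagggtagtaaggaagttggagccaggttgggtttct

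In Sycp3 the 2 E-boxes began 64 and 43 bases before the start. The single copies began 29 bases before the start in Ddx4, 223 in Mael, 93 in Slc25a31 and 11 in Tdrd1 (from the first of its 3 listed start sites). Over 21263 such windows of protein-coding genes, 6.63% held this E-box. The E2F core on either strand occurred once each in Ddx4, Sycp3 and Mael, and in 21.8% of all windows. Dazl and Prdm1 held neither. The SOX core CATTGT was found on the other strand in Stra8 and Nanos3 (9.35% of all windows), and the OCT4 octamer, on either strand, in no listed window of the 9 genes (1.58%). All were searched on both strands, and no match overlapped another. These are matches of letters and not measured binding.

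The ratio of observed to expected CG dinucleotides in these windows was 1.0 in Ddx4, 0.812 in Slc25a31, 0.75 in Mael, 0.710 in both Dazl and Prdm1 and 0.639 in Sycp3. It was 0.267 in Stra8 and 0.151 in Nanos3. The 3 start sites of Tdrd1 had 0.531, 0.862 and 0.250. Among all protein-coding genes with a listed start, 95.6% of the 8367 with a ratio of 0.6 or more had a start called in all libraries, against 34.6% of the 9124 below it. Among genes at 0.6 or more the share was 95.8% with the E-box and 95.5% without.

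A peak lay within 1 kb of the start site in all 4 libraries at 7 of the 9 genes, and over all 17492 protein-coding genes with a listed start the share was 63.8%. Tdrd1 had such a peak in 1 library and Nanos3 in none, while 28.3% of all genes had none. The called start sites fell at different levels. Dazl, Stra8 and Prdm1 reached 1.12 to 1.70 times the median, and Ddx4, Sycp3, Mael and Slc25a31, which all hold the E-box, 0.458 to 0.943 times. The latter 4 stood at percentiles 0.639 to 18.5 of the called start sites of their library, where the median gene was at 1.49 to 1.67 times. These levels are the highest within 1 kb. At Dazl the highest summits lay 457 to 817 bp into the gene. Its summits nearest the start had pileups of 25 and 22 with SOX17FNV and 19 and 20 with SOX2, all below the library's median. The Stra8 region began 857 bp downstream of its start. Of Dazl, Stra8 and Prdm1, only Prdm1 had its highest summits close to the start. Over all start sites with a CG ratio of 0.6 or more the median level was 1.66 with the E-box and 1.71 without it. When peaks needed a -log10 q of at least 5, 3 genes kept a start-site peak in all libraries, namely Dazl, Stra8 and Prdm1, where 54.7% of all genes did.

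**Figure D1:**
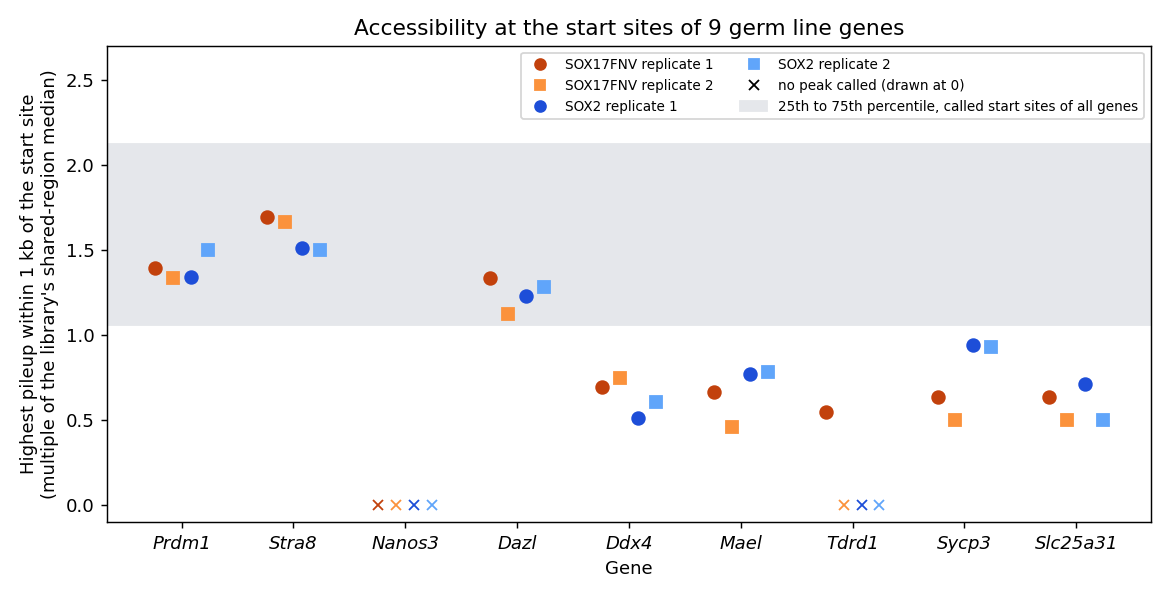
Highest pileup within 1 kb of the start site, as a multiple of the library's median over shared regions (vertical axis, linear), for the 9 genes; each point is 1 library, crosses mark libraries with no peak, and the grey band runs from the lowest 25th to the highest 75th percentile of called start sites over the 4 libraries. Dazl, Stra8 and Prdm1 lie in the band at 1.12 to 1.70, while Ddx4, Sycp3, Mael and Slc25a31 lie below it. The points of Dazl and Stra8 come from summits inside the gene and not at its start.

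Among the RNA-binding proteins, Dazl did not separate the groups. Its start-site region (chromosome 17, 50292661 to 50293751) had pileups of 44 and 27 with SOX17FNV and 43 and 36 with SOX2. These were 1.23 ± 0.147 and 1.26 ± 0.0404 times the median (SD, n = 2), and the groups overlapped. The region reached over the start site in each library, but its highest summits lay 763, 817, 779 and 457 bp into the gene. The further summits nearest the start lay at 282 and 229 bp with SOX17FNV, with pileups of 25 and 22 in replicates 1 and 2. With SOX2 they lay at -48 and 50 bp, with pileups of 19 and 20. In each library they were part of the same peak that covered the start. Beside this region the window of Dazl held 1 further peak, in SOX17FNV replicate 2 alone.

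At Ddx4, the mouse vasa gene, the start-site region (chromosome 13, 112652038 to 112652501) had pileups of 23 and 18 with SOX17FNV and 18 and 17 with SOX2. Scaled, the SOX17FNV libraries stood at 0.697 and 0.75 and the SOX2 libraries at 0.514 and 0.607, so both SOX17FNV libraries were above both SOX2 libraries. The ratio of means was 1.29 (exact two-sided permutation p = 0.333). The highest summits lay 34 bp after and 23 bp before the start with SOX17FNV and 172 and 167 bp after it with SOX2, and SOX2 replicate 1 listed a further summit of the same pileup 28 bp before the start. The strongest region of the window, 7913 bp upstream at the start of its neighbour Slc38a9, an amino acid transporter gene, was at 1.90 ± 0.147 and 1.79 ± 0.101 times the median (SD, n = 2).

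In the piRNA pathway, the start of Mael (chromosome 1, 166238334 to 166239102) was higher in both SOX2 libraries. Pileups were 22 and 11 with SOX17FNV against 27 and 22 with SOX2, or 0.667 and 0.458 against 0.771 and 0.786 times the median. The SOX2 mean was 1.38 times the SOX17FNV mean (exact two-sided permutation p = 0.333), and most of that distance came from SOX17FNV replicate 2. Divided by the genome-wide background, the groups overlapped, at 5.63 and 3.37 against 6.47 and 4.39 times it. Tdrd1, whose protein binds piRNA-pathway proteins through tudor domains, had a start-site peak in SOX17FNV replicate 1 alone (chromosome 19, 56826117 to 56826498), with a pileup of 18 and a -log10 q of 1.59. Its summit was 15 bp before the first start site. The same peak covered the second listed start, and no library listed a peak at the third. The strongest region of this window, at the start of the neighbour Ccdc186, 3388 bp upstream (56821814 to 56822821), was at 1.76 ± 0.220 and 1.81 ± 0.0606 times the median (SD, n = 2), and the groups overlapped.

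Among the meiotic genes, Sycp3 showed the lowest ratio of all shared regions of these windows. Its start-site region (chromosome 10, 88459285 to 88459859) had pileups of 21 and 12 with SOX17FNV against 33 and 26 with SOX2. The scaled levels were 0.636 and 0.5 against 0.943 and 0.929, so the groups did not overlap. They did overlap when pileups were divided by the genome-wide background instead, at 5.37 and 3.67 against 7.91 and 5.18 times it. Scaled to the median, the SOX2 mean was 1.65 times as high, at 0.936 ± 0.0101 against 0.568 ± 0.0964 (SD, n = 2; exact two-sided permutation p = 0.333). Only 5% of all shared regions in the series had a SOX17FNV over SOX2 ratio below 0.692, and that of Sycp3 was 0.607. All 4 summits lay within 52 bp of the start site. A second Sycp3 region, 2443 bp upstream (chromosome 10, 88456670 to 88457144), went the other way: both SOX17FNV lists had it, at pileups of 21 and 17, and no SOX2 list did. The strongest Sycp3 region, inside the neighbour Chpt1 and 22865 bp downstream (88482452 to 88483343), was at 1.30 ± 0.305 and 1.23 ± 0.480 times the median (SD, n = 2), and replicate 1 was above replicate 2 in both groups.

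Stra8, the gatekeeper of meiotic entry, had the highest ratio. The region concerned lies past the end of the gene, 2185 bp beyond its span and 20581 bp from its start (chromosome 6, 34941529 to 34942657). It was chosen for description after its values were seen. Pileups were 45 and 33 with SOX17FNV and 19 and 22 with SOX2, or 1.36 and 1.38 against 0.543 and 0.786 times the median. The SOX17FNV mean was 2.06 times the SOX2 mean (1.37 ± 0.00804 against 0.664 ± 0.172, SD, n = 2; exact two-sided permutation p = 0.333), and 95% of shared regions of the series had a ratio below 1.44. A pair of other Stra8 regions also had both SOX17FNV libraries above both SOX2 libraries. The first, 7006 bp upstream, was at 1.21 and 1.17 against 1.0 and 0.714 times the median. The second was the region nearest the start. It did not reach the start itself but began 857 bp downstream of it, inside the gene. It stood at 1.70 and 1.67 against 1.51 and 1.50, a ratio of 1.12. The strongest region in this window, at the start of the neighbour Wdr91, an endosomal regulator gene, was at 2.09 ± 0.343 with SOX17FNV and 2.06 ± 0.212 with SOX2 (SD, n = 2) and did not separate the groups.

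Slc25a31 had 2 regions, both called in all libraries. Its start-site region (chromosome 3, 40708556 to 40709208) had pileups of 21 and 12 with SOX17FNV and 25 and 14 with SOX2. The scaled levels, 0.568 ± 0.0964 and 0.607 ± 0.152 (SD, n = 2), overlapped, and replicate 1 of either group was above replicate 2. The other region, at the start of the neighbour Hspa4l, a heat-shock protein gene, was at 1.47 ± 0.193 and 1.45 ± 0.0253 times the median (SD, n = 2).

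Of the specification genes, Prdm1 had the most regions, 19, in the longest window. Its start-site region (chromosome 10, 44458542 to 44459426) had pileups of 46 and 32 with SOX17FNV and 47 and 42 with SOX2, or 1.36 ± 0.0429 and 1.42 ± 0.111 times the median (SD, n = 2), and the groups overlapped. All 4 highest summits lay 7 to 63 bp before the start site. The gene span reaches far upstream of that site, and the upstream end of the span lay between regions called in all libraries, at 0.932 and 1.01 times the median just inside and 1.19 and 1.22 just outside (means of SOX17FNV and SOX2). Past the other end, the strongest region of the window (44427734 to 44428552) was at 1.82 and 1.83 with SOX17FNV and 1.74 and 1.43 with SOX2. A region 1846 bp past that end (44434585 to 44435328) was chosen for description after its values were seen. It had pileups of 46 and 29 against 35 and 21, a ratio of 1.49. Both were higher in both SOX17FNV libraries (exact two-sided permutation p = 0.333 for each). A region 24196 bp upstream of the start and inside the span had pileups of 24 and 22 with SOX17FNV but 49 and 23 with SOX2, so a single SOX2 library stood apart there.

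Nanos3 had no peak at its start or in its body in any library. Elsewhere in this window, a peak of SOX17FNV replicate 1 with a pileup of 43 had a -log10 q of only 1.52. Its local background was 25.6, while that of the SOX2-only region 16663 bp downstream of the start was 4.29 and 5.93. The background at the start is not known, so the missing peak there does not show a low pileup. The shared regions of its window were strong and lay 3322, 9828 and 15117 bp upstream, at means of 2.17 to 2.30 times the median with SOX17FNV and 2.24 to 2.40 with SOX2. Pileups there were 51 to 84, yet fold enrichments, the authors' ratio of pileup to local background, were 3.07 to 4.29, since the local background was 14 to 23.6 against 3.27 to 5.02 genome-wide. In the farthest of the 3, the strongest (chromosome 8, 84191669 to 84193000), both SOX2 libraries were above both SOX17FNV libraries, at 2.40 and 2.39 against 2.21 and 2.12. The sign of this difference turned when pileups were scaled to the genome-wide background instead (log2 ratio of 0.03 against -0.14).

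**Figure D2:**
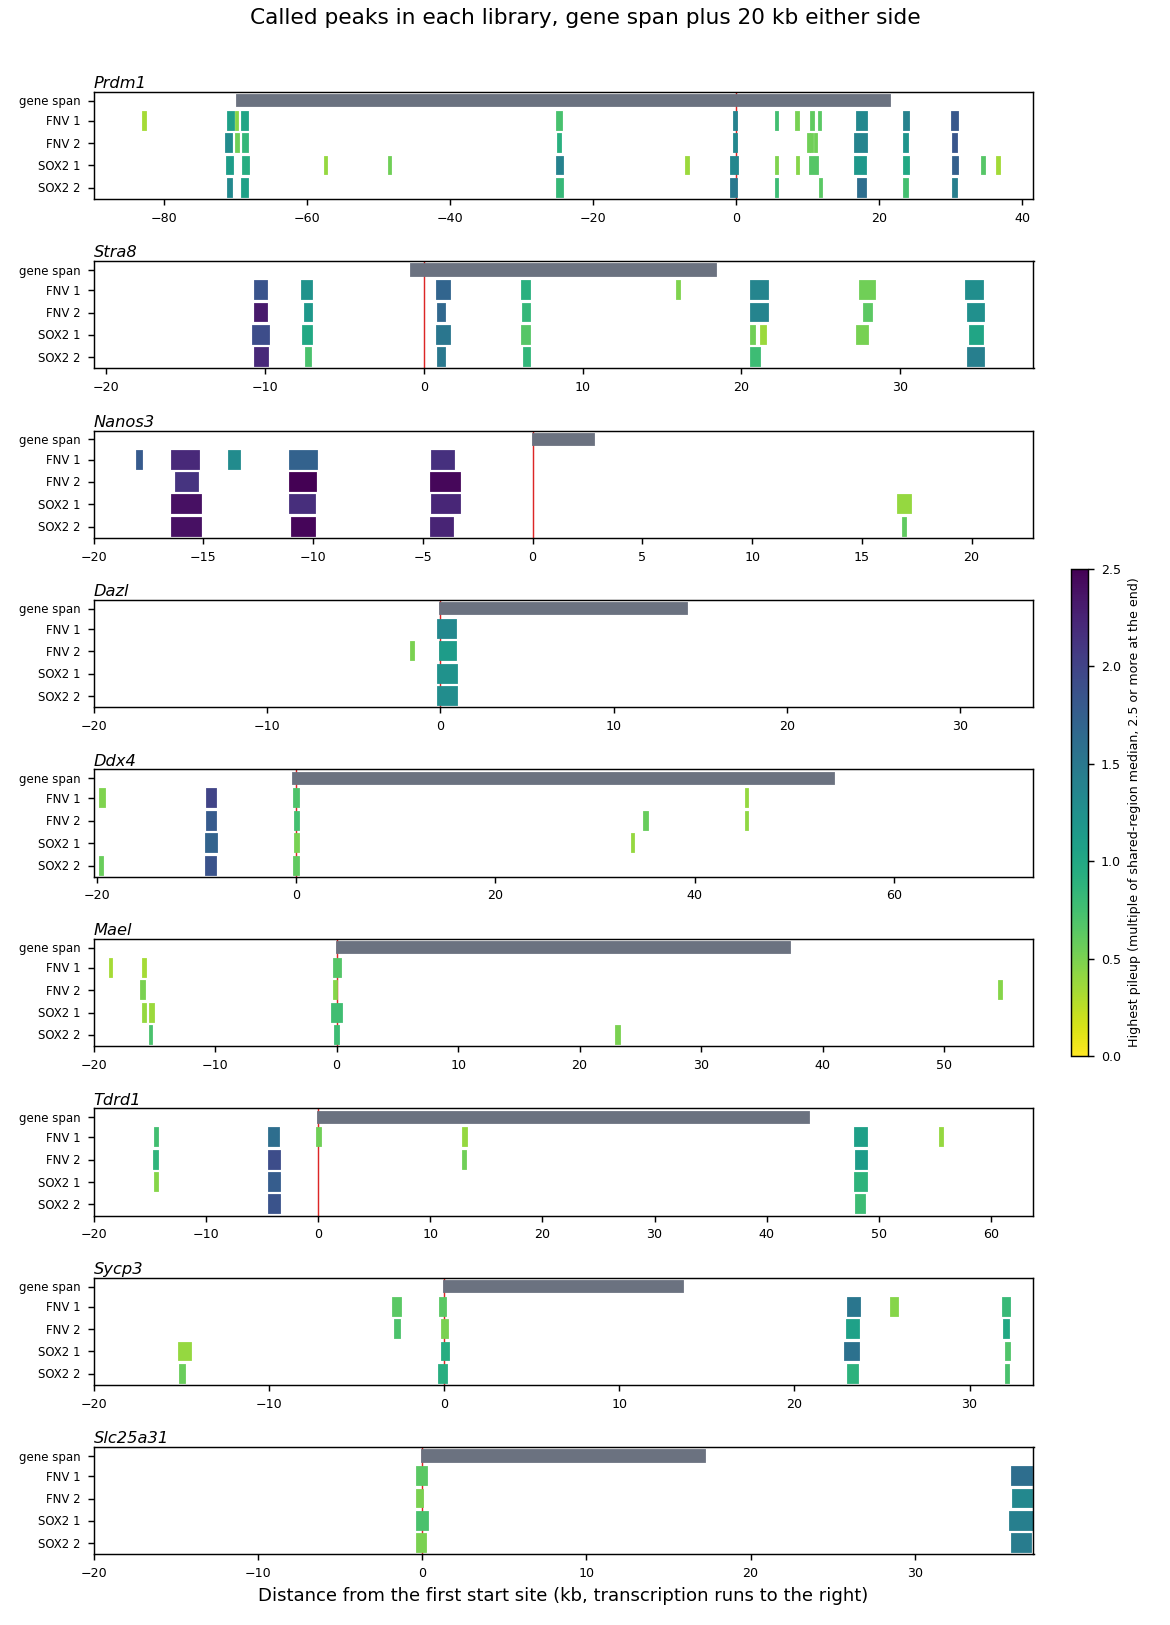
Called peaks of each library (rows; FNV is SOX17FNV) in the window of each gene, by distance from the first start site in kb with transcription to the right; grey bars are gene spans, the red line is the start site, colour is the highest pileup as a multiple of the shared-region median, and very narrow peaks are drawn at a minimum width. The strong regions upstream of Nanos3 can be seen, as can the start sites without a called peak at Nanos3 and, in 3 libraries, Tdrd1.

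Regions called in one group only were weak. Of the 61 regions, 4 (6.56%) appeared in both SOX17FNV lists and no SOX2 list (SOX17FNV-only). The same held for 3.06% of all regions of the series and 2.91% of those within 20 kb of a protein-coding gene. The reverse (SOX2-only) held for 3 (4.92%), against 4.09% and 3.72%. In all 4 libraries 27 were called, or 44.3% against 33.8% and 35.4%. The other 27 followed no group: 19 were called in 1 library, 3 in 1 library of each group and 5 in 3 libraries. The counts are small, and whether these windows differ from the series was not tested. The 4 SOX17FNV-only regions were the Sycp3 region 2443 bp upstream, 1 deep inside Ddx4 (chromosome 13, 112606960 to 112607189; pileups 13 and 10), 1 inside Tdrd1 (chromosome 19, 56839116 to 56839521; 13 and 13), and 1 at the upstream end of the Prdm1 span (chromosome 10, 44528300 to 44528628; 15 and 13). The 3 SOX2-only regions all lay at or in a neighbouring gene, inside Gnptab near Sycp3 (chromosome 10, 88444436 to 88445130; 14 and 16), inside 4930432K21Rik near Nanos3 (chromosome 8, 84159320 to 84159889; 14 and 17), and at the start of Ildr2 near Mael (chromosome 1, 166253806 to 166254092; 13 and 20). No listed member start site was called in one group only. The SOX17FNV-only Prdm1 region covers the upstream end of the gene span, where no start site is listed. Over all listed start sites 0.303% had peaks in the SOX17FNV pair alone and 0.497% in the SOX2 pair alone.

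All 7 group-specific regions had pileups of 10 to 21, next to the weakest pileups of 10 to 13 listed at all. Lists of equal length left 1 SOX17FNV-only region, at Sycp3, and 0 SOX2-only regions of 49. Over all regions the shares were then 3.87% and 4.36%. None of the 7 was left with a -log10 q of at least 5. Stronger regions, called in further libraries at the deposited threshold, then became group-specific. The start of Ddx4 turned SOX17FNV-only, with -log10 q of 8.87 and 6.26 against 4.98 and 3.15, so 1 SOX2 library missed that threshold narrowly. The start of Sycp3 turned SOX2-only, with 4.20 and 1.52 against 11.2 and 7.08. SOX17FNV-only were also the Stra8 region past the gene's end, with 16.6 and 11.0 against 4.43 and 3.99, and a region inside Ccdc186, 14285 bp upstream of Tdrd1 (chromosome 19, 56811606 to 56811924), with 10.4 and 8.38 against 3.78 and no peak. With at least 10, the Stra8 region alone was left. Of all regions, 3.40% were SOX17FNV-only and 3.24% SOX2-only with at least 5, and 3.31% and 2.78% with at least 10. Leaving out a library means that a single library decides for its group: SOX17FNV-only and SOX2-only counts were then 8 and 4 with replicate 1 of SOX17FNV left out (9.23% and 10.7% of all regions), and 12 and 3 with its replicate 2 left out (15.4% and 5.53%). They were 8 and 4 with replicate 1 of SOX2 left out (9.80% and 12.2%), and 4 and 9 with its replicate 2 left out (4.64% and 17.9%).

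Of the 27 shared regions, 8 had both SOX17FNV libraries above both SOX2 libraries, where 24.1% of all shared regions did. In 3 both SOX2 libraries were above, where 18.4% did. The median log2 ratio of SOX17FNV over SOX2 was 0.02 over these regions and 0.04 over all shared regions. By ratio, 1 region fell below the 5th percentile of the series (the Sycp3 start) and 2 above the 95th (the Stra8 region past the gene's end and the Prdm1 region 1846 bp past its span). The 8 regions higher with SOX17FNV were 3 at Stra8, 2 at Prdm1 and 1 each at Ddx4, Sycp3 and Tdrd1. The Sycp3 one also lies in Chpt1, a phospholipid synthesis gene, with a ratio of 1.30, and the Tdrd1 one at the start of the neighbour Vwa2, with a ratio of 1.33. At start sites alone, 2 of the 7 were higher with SOX17FNV (Ddx4 and Stra8), against 24.8% of all start sites called in all libraries, and 2 with SOX2 (Sycp3 and Mael), against 13.9%.

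**Figure D3:**
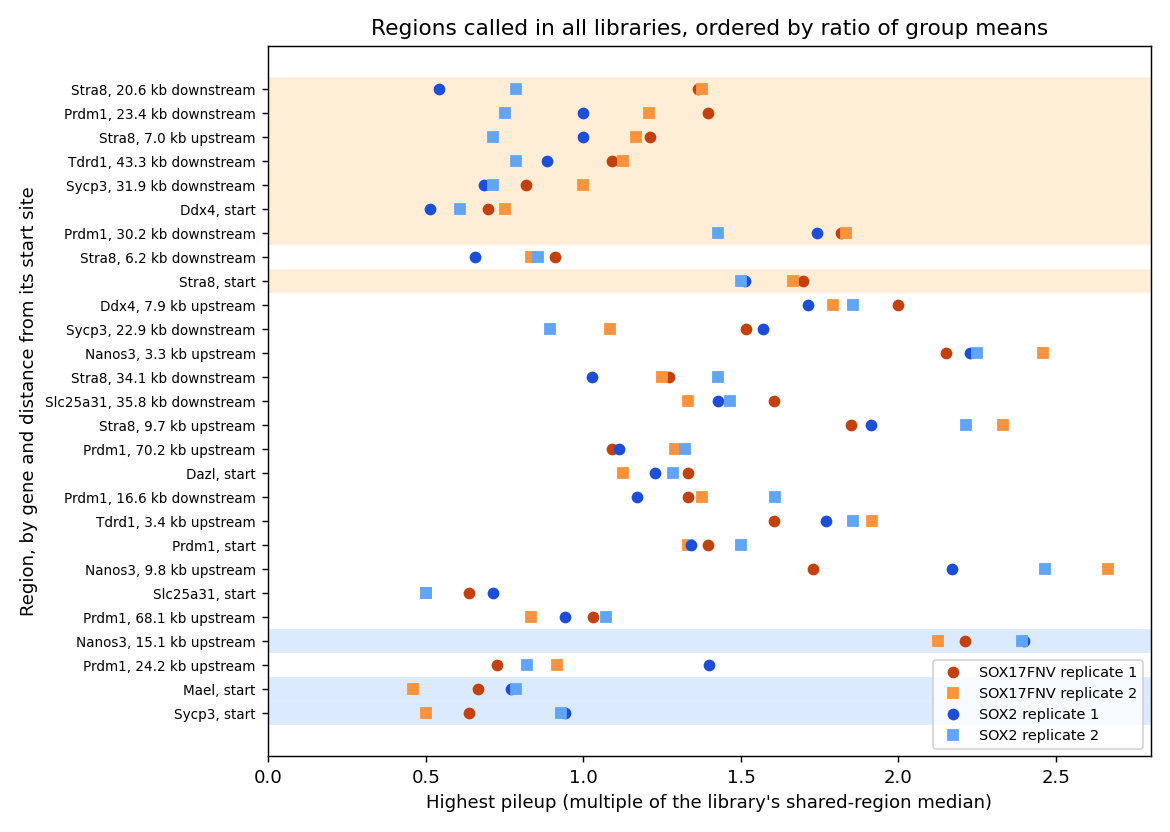
Highest pileup of the 27 regions called in all libraries, as a multiple of the library's shared-region median (horizontal axis), ordered by the ratio of group means; each point is 1 library, orange rows have both SOX17FNV libraries above both SOX2 libraries and blue rows the reverse. The 8 orange and 3 blue rows hold the regions whose groups do not overlap.

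The pileup of shared regions within 5 Mb of each gene differed little between groups, with SOX17FNV over SOX2 ratios of 0.941 to 1.07. With local scaling the log2 ratio was -0.65 at the Sycp3 start (-0.72 before) and 1.06 at the Stra8 region past the gene's end (1.04 before). Under it, 9 regions had both SOX17FNV libraries above and 5 both SOX2 libraries; the shares over all regions were not computed. Scaled to the genome-wide background, the numbers were 9 and 0, against 31.5% and 4.18% of all shared regions. The Stra8 region nearest the start and the strongest Prdm1 region then overlapped between groups too. That scaling moves all shared regions by 0.18 in log2 toward SOX17FNV, and SOX2 replicate 2 had the highest background. The log2 ratio of the Sycp3 start was then -0.53. Without 1 library a region is ordered by 3 values, and 9 to 13 regions were higher with SOX17FNV (29.0% to 41.0% of all shared regions) and 7 to 9 with SOX2 (32.0% to 40.5%).

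**Figure D4:**
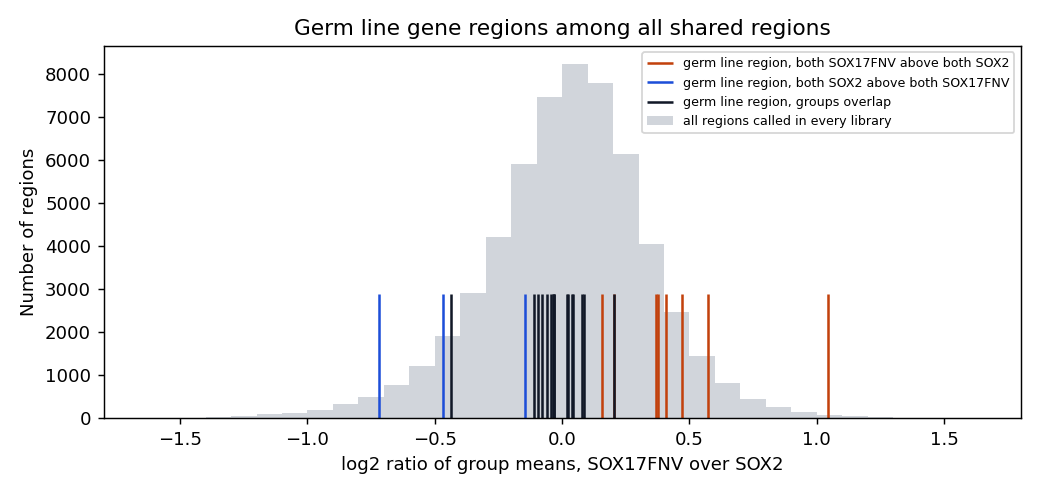
Distribution of the log2 ratio of group means, SOX17FNV over SOX2, over all 57783 shared regions (grey bars, number of regions) with the 27 regions of the germ line genes as vertical lines, coloured by whether the groups overlap. The Sycp3 start at -0.72 and the Stra8 region past the gene's end at 1.04 are the outermost lines, and at 0.20 a black line covers an orange one.

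Further genes of the same pathways were taken from lists of germ line genes and counted in the same windows. Of piRNA pathway genes, 10 of 14 with a listed start had a peak there in all libraries and 3 (Piwil1, Piwil4 and Tdrd9) in none. Of meiotic genes, 17 of 18 had one in all libraries, Sycp1, Dmc1 and Msh5 among them, and Rad21l in none, which compares with 63.8% of all genes. Of germ cell transcription genes, 5 of 9 had one in all libraries. Nobox, an oocyte homeobox gene, and Taf7l, a germ cell variant of a general transcription factor, had start peaks in both SOX2 libraries and neither SOX17FNV library. Over all listed starts, 0.497% had peaks in the SOX2 pair alone and 0.303% in the SOX17FNV pair alone. Levels were 0.429 and 0.75 at Nobox and 0.714 and 0.857 at Taf7l, where the lowest level in a list was 0.333 to 0.464. Of 4 primordial germ cell genes with a listed start, Kit and Lin28a had one in all libraries. Over starts called in all libraries, median levels were 1.07 in the piRNA, 1.19 in the meiotic and 0.972 in the transcription list. In the list of primordial germ cell genes the median was 1.49, from 2 starts. In the 9 genes it was 0.752, from 7 starts.

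The same lists had group-specific regions in both directions, where 3.06% of all regions were SOX17FNV-only and 4.09% SOX2-only. SOX17FNV-only and SOX2-only regions numbered 7 and 7 of 164 in the piRNA list, 5 and 6 of 202 in the meiotic list, 5 and 5 of 119 in the transcription list and 4 and 2 of 112 in the list of primordial germ cell genes. Single genes with several were Tdrd6, a tudor protein gene, with 3 SOX2-only, and Tdrd9, a helicase gene, Dmc1, a meiotic recombinase gene, and Lhx8, an oocyte regulator gene, with 2 SOX17FNV-only each. Rnf17, a tudor protein gene, had 2 SOX17FNV-only and 1 SOX2-only, Tex11, a meiotic gene, 1 and 2, and Zbtb16, a gene of spermatogonial stem cells, 0 and 2. Around the complexes and enzymes that silence germ line genes, 5 of 287 regions were SOX17FNV-only and 13 were SOX2-only, the latter with 3 at Ehmt2, a histone methyltransferase gene, and 2 each at Rnf2, Rybp and Uhrf1. Start sites of this list were called in all libraries at 16 of 17 genes, including Mga, Max, E2f6 and Pcgf6, at a median of 1.77 times the shared-region median. Of genes that mark meiotic or later germ cells, 2 of 6 with a listed start were called in all libraries and 3 (Prm2, Tnp1 and Piwil1) in none. Of fibroblast markers, which feeder cells would express, 3 of 5 were called in all libraries and 2 (Col3a1 and Postn) in none, and a part of other cells in the values above was not tested.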

How the data were processed

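The authors deposited 1 peak list per library, from 900000 cells each per the labels. Bowtie2, SAMtools, MACS2 and mm10 are named in the submitters' processing notes; versions, settings, filters and any shift of reads were not given in the sources used here. Per peak, the deposited values are a fold enrichment (a ratio of pileup to local background), the -log10 of the p-value and q-value, and a score, 10 times the -log10 q. The lowest deposited -log10 q was 1.30. All are the authors' values per peak.

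The pileup was solved from the fold and p-value. A whole number gave the deposited -log10 p within 0.001 for 100% of lines. The step was tested on simulated data. Peaks overlapping by 1 bp were merged into regions, and a library called a region when a peak of its own lay in it. Pileups were divided by the library's median over regions called in all libraries. Group values were compared by exact permutation over libraries (SciPy 1.17.1, Python 3.11.15). Regions are not replicates and got no test.

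Gene spans came from the RefSeq table for GRCm38.p6, start sites from its promoter table; that table is not complete, so counts of start sites cover genes with an entry. Exons and peak sequences were not used here. All 9 genes are described, with each group-specific, start-site and strongest shared region; of other lists, genes with group-specific regions or starts. The genes and lists were chosen with earlier results of these data known. Regions of the 9 genes that are neither group-specific, start-site nor strongest shared regions were described with their values known. Alternatives were stricter thresholds, equal list lengths, other windows, merging and scaling, same-numbered pairs and leaving out each library.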

Additional observations from a re-analysis of the deposited data

How the results depend on the processing

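The main counts were 4 SOX17FNV-only, 3 SOX2-only and 27 shared regions, 8 and 3 shared regions higher in both SOX17FNV or both SOX2 libraries, and 7 start sites called in all libraries. With a -log10 q of at least 5 the windows held 31 regions. Of these 3 were SOX17FNV-only and 1 was SOX2-only, against 3.40% and 3.24% of all regions. Of 19 shared regions, 2 were higher with SOX17FNV and 1 with SOX2, against 22.5% and 19.1% of all shared regions. Start sites called in all libraries numbered 3, against 54.7% of all genes. With at least 10 there were 25 regions, of which 1 was SOX17FNV-only, 0 were SOX2-only and 13 were shared. The shares over all regions were 3.31%, 2.78% and 31.7%. Of the shared regions 1 was higher with SOX17FNV and 2 with SOX2, against 21.5% and 18.6%. There were 3 start sites called in all libraries, against 40.6% of all genes. Lists of equal length gave 1 SOX17FNV-only and 0 SOX2-only of 49 regions, against 3.87% and 4.36% of all regions. Windows of 50 kb held 119 regions, with 5 SOX2-only and 45 shared, 15 of the shared ones higher with SOX17FNV. Windows of 10 kb held 42 regions, with 0 SOX2-only. Gene spans alone held 27 regions, with 0 SOX2-only and 11 shared, 2 of the shared ones higher with SOX17FNV. The series shares do not depend on the window. They were 4.09% SOX2-only, 33.8% shared, and 24.1% of shared regions higher with SOX17FNV. Scaling to the background pileup gave 0 regions higher with SOX2, so the Sycp3, Mael and Nanos3 calls were lost, and local scaling 5. Without 1 library each, SOX17FNV-only counts were 4 to 12 (4.64% to 15.4% of all regions) and SOX2-only 3 to 9 (5.53% to 17.9%). Shared regions numbered 27 to 31 (39.1% to 41.9%). Of these, 9 to 13 were higher with SOX17FNV (29.0% to 41.0% of all shared regions) and 7 to 9 with SOX2 (32.0% to 40.5%). Start sites numbered 7 (64.0% to 65.0% of all genes). Joining peaks only at 100 bp of overlap changed none of the first 5 counts. A start-site distance of 500 bp gave 6 start sites, without Stra8, and 2 kb gave 7, against 61.9% and 66.2% of all genes.

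The replicate block set each SOX17FNV library against the SOX2 library of the same number. It gave 8 regions higher and 4 lower in both pairs, against 34.7% and 26.6% of all shared regions. Over shared regions the differences between replicate 1 and replicate 2 of the groups correlated at r = 0.23, but the labels give no pairing beyond the number. For the 27 shared regions, 156 of 189 log2 ratios under 7 alternatives stayed within 1 SD of the main value. That SD comes from the same libraries, so leaving out 1 library can hardly move a ratio by more than it. The replicate block averages the same values again. The count is therefore largely set in advance and does not measure how stable the ratios are. Among regions whose groups did not overlap, 1 changed sign: the Nanos3 region at 84191669 turned from -0.14 to 0.034 when scaled to the background pileup. Where a count changed, the cause was not tested, except that stricter thresholds and smaller windows hold fewer regions. At this depth nothing under a pileup of 10 to 13 was listed, and group-specific regions had 10 to 21; what depth does to their calls was not tested.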
